A study of Mus musculus with 10 samples.

Results

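CpG-dense DNA 8-mers that carry none of the 4-base cores recognised by basic leucine zipper (bZIP) domains were examined on universal protein binding microarrays. A member is an 8-mer, merged with its reverse complement, that holds at least 2 CpG dinucleotides and has on neither strand TGAC, TTAC or TTGC, the first 4 bases of the CRE, PAR and C/EBP octamers. The rule uses sequence alone and found 1704 members among 32896 8-mers. Of these, 1621 held 2 CpG, 82 held 3 and 1 held 4. Another 81 of the 1785 8-mers with at least 2 CpG were left out because they hold a core. The name of the class holds with a limit: 648 members (38.0%) keep ACGT, the centre of the CRE and PAR octamers, or a core fragment joined to its CpG, namely GACG or TACG, or TGCG, and the bases next to a member on a probe can complete a core.

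The series set mutant bZIP domains against a wild-type domain and methylated against unmethylated DNA. The 10 arrays form 5 groups of 2: mouse CEBPB(V285A) on methylated DNA, CREB1(A297V) on methylated DNA, CEBPB(V285A) on unmethylated DNA, CREB1(A297V) on unmethylated DNA, and wild-type CREB1 on unmethylated DNA. All groups share the same format: GST-fused DNA-binding domains, not full-length proteins, were produced without cells and bound to Agilent arrays with a DeBruijn probe design, and binding was read as Cy5 fluorescence. Methylated arrays had been treated for 3 h with M.SssI, an enzyme that methylates the cytosine of CpG. Wild-type CEBPB and CREB1 on methylated DNA were not analysed here. Whether the replicate arrays of a group used different protein batches is not stated in the labels, and the p-values may therefore cover technical spread alone.

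bZIP proteins bind DNA as dimers in which each basic region reads one side of a short, nearly palindromic site. CREB1 is best known for the CRE octamer, and C/EBP proteins for a site centred on GCGC or a related sequence; the CRE, PAR and C/EBP octamers have a CpG at their centre. CpG is scarce in most of the mammalian genome, where its cytosine is usually methylated, and dense in the mostly unmethylated CpG islands of many promoters. CpG density and a bZIP core are therefore separate sequence features, and the members have the density without the core. The octamers from which the cores were taken, and the members on which the results turn, are shown 5′ to 3′ on a single strand with every CpG in capitals.
CRE octamer: tgaCGtca
PAR octamer: ttaCGtaa
C/EBP octamer: ttgCGcaa
Highest member for CEBPB(V285A) and CREB1 on unmethylated DNA: aCGtaCGt
Highest member for both mutants on methylated DNA: taCGCGta
Member far higher for CEBPB(V285A) than for CREB1(A297V) on methylated DNA: gCGaCGta
Member higher for CREB1(A297V) than for CEBPB(V285A) on methylated DNA: CGaaatCG
Member lower for CEBPB(V285A) on methylated DNA with any array left out: CGtaCGtc
Highest member for CREB1(A297V) on unmethylated DNA: aagCGCGt
Member with the most CpG: CGCGCGCG

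Binding is given as a Z-score within each array. It is the median log2 signal of the probes that hold an 8-mer, after subtraction of the local median of the slide, centred on the median of all 8-mers and divided by their scaled median absolute deviation. A member was held by 15 to 41 probes, with a median of 34, and neighbouring members share probes, so members are not independent of each other. Median signal ranged over the arrays between 345 and 1857 units, and median signal over background between 1.79 and 5.10. Between replicate arrays, Pearson's r over the members was 0.956 for CEBPB(V285A) and 0.942 for CREB1(A297V) with methylated DNA, and 0.963 for CEBPB(V285A), 0.805 for CREB1(A297V) and 0.931 for CREB1 on unmethylated DNA. The unmethylated CREB1(A297V) and CREB1 arrays carry the same array identifier, the unmethylated CEBPB(V285A) arrays a different one and both methylated groups yet another. The identifier therefore cannot be told apart from methylation, or from the protein where unmethylated CEBPB(V285A) is compared. The methylated CREB1(A297V) arrays also had the probes at other positions than the remaining arrays.

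As a class, the members sat near the middle of each array's range, far below the bZIP octamers. Their median Z was -0.193 ± 0.0652 for CEBPB(V285A) and -0.406 ± 0.00524 for CREB1(A297V) with methylated DNA (mean of the array medians ± SD, n = 2 arrays in each group). On unmethylated DNA it was 0.0735 ± 0.0280 for CEBPB(V285A), -0.387 ± 0.254 for CREB1(A297V) and 0.151 ± 0.237 for CREB1. The CRE octamer scored 18.9 ± 0.368 for CEBPB(V285A) and 21.6 ± 0.431 for CREB1(A297V) with methylated DNA, and 23.2 ± 0.111 for CEBPB(V285A), 14.5 ± 2.58 for CREB1(A297V) and 30.8 ± 2.42 for CREB1 on unmethylated DNA. The PAR octamer scored between 15.4 ± 0.820 for CREB1 and 26.6 ± 2.54 for CREB1(A297V) on methylated DNA. The C/EBP octamer scored 18.2 ± 0.493 on methylated and 16.2 ± 0.875 on unmethylated DNA for CEBPB(V285A), and at most 4.99 ± 0.538 in the other groups. No member reached the CRE octamer in any group.

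A small upper tail of members stood out from the class. A mean Z of at least 3 was reached by 28 members (1.64%) for CEBPB(V285A) and 2 (0.117%) for CREB1(A297V) with methylated DNA. On unmethylated DNA the numbers were 79 (4.64%) for CEBPB(V285A), 0 for CREB1(A297V) and 89 (5.22%) for CREB1. Among all 8-mers the shares were 3.28% for CEBPB(V285A) and 2.90% for CREB1(A297V) with methylated DNA, and 3.50% for CEBPB(V285A), 1.68% for CREB1(A297V) and 2.69% for CREB1 on unmethylated DNA. These exceed the members' shares on methylated DNA and for unmethylated CREB1(A297V), and lie below them for unmethylated CEBPB(V285A) and CREB1. The highest members were largely shared: 63 were at or above 3 for both unmethylated CEBPB(V285A) and CREB1, which is 79.7% of the CEBPB(V285A) members and 70.8% of the CREB1 members. Of the 28 members at this level for methylated CEBPB(V285A), 23 (82.1%) were also there for the same protein on unmethylated DNA, where they made up 29.1%.

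Members with at least 3 CpG had a higher median than those with 2. The 83 members with at least 3 CpG had a median Z of 0.263 ± 0.0409 for CEBPB(V285A) and -0.134 ± 0.0992 for CREB1(A297V) with methylated DNA. On unmethylated DNA they had 0.841 ± 0.0104 for CEBPB(V285A), -0.0654 ± 0.345 for CREB1(A297V) and 0.958 ± 0.397 for CREB1. The members with 2 CpG lay below them in every group, with -0.214 for CEBPB(V285A) and -0.413 for CREB1(A297V) with methylated DNA, and 0.0481 for CEBPB(V285A), -0.406 for CREB1(A297V) and 0.114 for CREB1 on unmethylated DNA. The single member with 4 CpG, CGCGCGCG, had 1.84 and 2.66 for CEBPB(V285A) and 1.50 and 0.969 for CREB1(A297V) on the 2 methylated arrays of each. On unmethylated arrays it had 3.56 and 2.96 for CEBPB(V285A), 1.97 and 1.79 for CREB1(A297V) and 2.76 and 2.52 for CREB1. It was positive on all 10 arrays, lay above the median of the members with 3 or more CpG in each group, and its CEBPB(V285A) and CREB1(A297V) arrays did not overlap on unmethylated DNA. That difference was 1.38 ± 0.394 (all differences are given ± SE), with a limma Benjamini-Hochberg adjusted p of 0.0154, and was not called without unmethylated CEBPB(V285A) replicate 1 (1.07 to 1.68 over the arrays left out). On core-free probes CGCGCGCG scored 0.641 ± 0.365 for CREB1(A297V) and 1.06 ± 0.497 for CREB1 on unmethylated DNA, and its CREB1 value lay just below the core-free median of the members with 3 or more CpG, 1.10 ± 0.443.

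Among the members with 2 CpG, the spacing between the CpG had an uneven relation to binding. It is counted from the first base of one CpG to that of the next, so that CGCG has a spacing of 2. For unmethylated CEBPB(V285A), the median Z was 0.204 ± 0.0115 at a spacing of 2 (523 members), 0.234 ± 0.0529 at 3 (452), -0.148 ± 0.0629 at 4 (351), -0.287 ± 0.0312 at 5 (200) and 0.198 ± 0.0767 at 6 (95). For CREB1 it was 0.242 ± 0.327, 0.352 ± 0.305, -0.166 ± 0.134, -0.288 ± 0.192 and 0.432 ± 0.369 over the same spacings. Spacings of 4 and 5 thus had the lowest medians for both proteins. On methylated DNA the CEBPB(V285A) medians were -0.0864, -0.0706, -0.395, -0.444 and -0.191 at spacings of 2 to 6, and those of CREB1(A297V) -0.320, -0.343, -0.598, -0.563 and -0.476. For CREB1(A297V) on unmethylated DNA they were -0.308, -0.362, -0.491, -0.691 and -0.179. Of the members with 3 CpG, those with spacings of 3 and 3 (10 members) had the highest medians on unmethylated DNA for CEBPB(V285A), 1.10 ± 0.0781, and CREB1, 1.45 ± 0.757. Those with spacings of 2 and 4 (15 members) had the lowest, 0.452 ± 0.0589 and 0.602 ± 0.626. These are descriptions of overlapping 8-mers that also differ in their other bases, and no test was made of the spacing.

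Base composition moved with the score, so members were set beside core-free 8-mers without CpG at the same number of G and C. For unmethylated CEBPB(V285A), members with 4, 5, 6, 7 and 8 G or C had median Z of 1.64, 0.686, 0.0875, -0.573 and -0.804 (114, 441, 662, 400 and 87 members). Core-free 8-mers without CpG had -0.311, -0.783, -1.19, -1.53 and -1.82 (4947, 2873, 904, 120 and 5 8-mers). The score declined with G and C in both sets, and the CpG-dense members lay above the other set at each of the 5 compositions. These members include those with ACGT or a core fragment. The 1056 members with neither had median Z of -0.489 for CEBPB(V285A) and -0.617 for CREB1(A297V) with methylated DNA. On unmethylated DNA they had -0.196 for CEBPB(V285A), -0.478 for CREB1(A297V) and -0.157 for CREB1. They were not split by composition. Core-free 8-mers with at least 2 GpC and no CpG (341) had medians of -0.690 for CEBPB(V285A) and -0.799 for CREB1(A297V) with methylated DNA, and -0.874 for CEBPB(V285A), -0.964 for CREB1(A297V) and -0.929 for CREB1 on unmethylated DNA. Each lay below the median of the members in the same group. The 81 8-mers with at least 2 CpG and a core stood higher than the members, with 3.80 for CEBPB(V285A) and 2.11 for CREB1(A297V) with methylated DNA, and 3.73 for CEBPB(V285A), 1.05 for CREB1(A297V) and 2.95 for CREB1 on unmethylated DNA.

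The bases next to the CpG separated the members more than their CpG number did. The 88 members with ACGT, the palindromic centre that the CRE and PAR octamers have in common, had a median Z of 1.75 ± 0.0769 for CEBPB(V285A) and 0.619 ± 0.145 for CREB1(A297V) with methylated DNA. On unmethylated DNA the medians were 2.69 ± 0.183 for CEBPB(V285A), 0.387 ± 0.266 for CREB1(A297V) and 3.13 ± 0.658 for CREB1. ACGT members were thus high for CEBPB(V285A) in both states and for CREB1, and near the array centre for CREB1(A297V). Among the contexts of the CpG, ACGT nevertheless had the highest median for CREB1(A297V) as well. ACGA came next for it, with 0.240 on methylated and -0.0454 on unmethylated DNA. The ACGT members made up 5.16% of the members but 39 of the 79 (49.4%) with Z of at least 3 for unmethylated CEBPB(V285A), 46 of the 89 (51.7%) for CREB1 and 15 of the 28 (53.6%) for methylated CEBPB(V285A). Members with ACGT or a core fragment accounted for 26 of those for methylated CEBPB(V285A), 69 for unmethylated CEBPB(V285A) and 77 for CREB1.

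The other 9 contexts came in the same order of medians for unmethylated CEBPB(V285A) and CREB1. Members with ACGC (369) had medians of 1.13 for CEBPB(V285A) and 1.21 for CREB1, and those with ACGA (173) had 0.873 for CEBPB(V285A) and 1.03 for CREB1. TCGA (95) gave 0.393 for CEBPB(V285A) and 0.510 for CREB1, GCGA (393) 0.0400 for CEBPB(V285A) and 0.0266 for CREB1, and GCGC (272), the centre of the C/EBP octamer, -0.0506 for CEBPB(V285A) and 0.00458 for CREB1. At the low end, CCGA (188) gave -0.283 for CEBPB(V285A) and -0.206 for CREB1, CCGC (382) gave -0.396 for CEBPB(V285A) and -0.390 for CREB1 and CCGG (95) -0.891 for CEBPB(V285A) and -0.859 for CREB1. ACGT, ACGC and ACGA thus headed the order, whereas ACGG (181), with -0.186 for CEBPB(V285A) and -0.0668 for CREB1, lay between GCGC and CCGA. A member counts in the context of each of its CpG. On methylated DNA, CCGG members had -1.26 for CEBPB(V285A) and -1.46 for CREB1(A297V), and GCGC members -0.305 for CEBPB(V285A) and -0.566 for CREB1(A297V). Core fragments scored by their kind on unmethylated DNA: TACG members (142) had 1.39 for CEBPB(V285A) and 1.60 for CREB1, GACG members (376) 0.935 for CEBPB(V285A) and 1.12 for CREB1, and TGCG members (163) 0.299 for CEBPB(V285A) and 0.335 for CREB1. The fragment medians are over all probes, on which a T before the fragment can complete a core.

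The base before ACGT, read on either strand, graded the ACGT members further. Preceded by T, G, C and A, they had median Z of 3.72, 2.98, 2.44 and 2.19 for unmethylated CEBPB(V285A) (21, 59, 22 and 21 members, not exclusive). For CREB1 the medians were 4.17, 3.24, 3.22 and 2.10. T and G are the bases that precede ACGT in the PAR and CRE octamers. Where a member begins with TACGT or GACGT, a T before it on the probe completes TTAC or TGAC. With C or A before ACGT no core forms in this way. These medians are over all probes and were not split by core. For comparison, the 435 core-free 8-mers with ACGT and no other CpG had medians of 2.56 for CEBPB(V285A) and 2.87 for CREB1 on unmethylated DNA, beside 2.69 for CEBPB(V285A) and 3.13 for CREB1 over the ACGT members.

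The member aCGtaCGt, a palindrome with ACGT at both ends, was the highest for unmethylated CEBPB(V285A) and for CREB1. It had Z of 4.48 and 3.81 on the methylated CEBPB(V285A) arrays and 2.66 and 2.34 on the methylated CREB1(A297V) arrays. On unmethylated arrays it had 9.93 and 7.67 for CEBPB(V285A), 0.514 and 0.745 for CREB1(A297V) and 7.05 and 9.60 for CREB1. CEBPB(V285A) and CREB1 overlapped and stood above every array of the other 3 groups, while CREB1(A297V) was lowest. Next for unmethylated CEBPB(V285A) came CGtaCGta with 6.93 ± 1.27, aCGtCGtc with 6.68 ± 0.306 and CGtaCGtc with 6.58 ± 0.437. For CREB1 the values of these 3 were 6.87 ± 1.61, 5.73 ± 1.22 and 6.53 ± 0.619, beside 6.33 ± 1.20 for taCGtCGa and 6.56 ± 0.482 for CGtataCG. All of these except CGtataCG hold ACGT, and CGtataCG is a palindrome with TACG.

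The member taCGCGta, with 2 TACG fragments facing each other, was the highest for both mutants on methylated DNA. It had Z of 8.08 and 7.86 for CEBPB(V285A) and 4.68 and 5.01 for CREB1(A297V) on methylated arrays. On unmethylated arrays it had 5.59 and 5.85 for CEBPB(V285A), 1.92 and 2.79 for CREB1(A297V) and 4.26 and 6.08 for CREB1. Both proteins had non-overlapping arrays with the methylated state higher. The member gCGaCGta followed for methylated CEBPB(V285A), with 6.11 and 5.27, while methylated CREB1(A297V) had 2.19 and 1.51. For CREB1(A297V) the next highest on methylated DNA were aCGaaaCG at 3.47 ± 0.736, CGaaatCG at 2.86 ± 0.265 and CGtataCG at 2.77 ± 0.226. On unmethylated DNA its highest member, aagCGCGt, reached 2.26 and 2.74, so its members spanned the narrowest upper range of the 5 groups.

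Cores in the flanking bases were tallied because each probe has 35 variable bases, and 44.5% of the probes hold no core anywhere in them. To show what surrounds a member, the brightest probes for the highest members are given as printed on the array, 5′ to 3′, with the member in capitals.
Brightest core-free probe with aCGtaCGt, unmethylated CEBPB(V285A): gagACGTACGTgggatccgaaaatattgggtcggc
Brightest core-bearing probe with aCGtaCGt, unmethylated CEBPB(V285A): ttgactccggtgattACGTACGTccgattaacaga
Brightest core-free probe with aCGtaCGt, CREB1: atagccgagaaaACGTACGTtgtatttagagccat
Brightest core-free probe with taCGCGta, methylated CEBPB(V285A) and methylated CREB1(A297V): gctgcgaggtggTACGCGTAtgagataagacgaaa
Brightest core-bearing probe with taCGCGta, methylated CEBPB(V285A) and methylated CREB1(A297V): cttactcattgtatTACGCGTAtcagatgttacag
On the unmethylated CEBPB(V285A) arrays the core-free probe with aCGtaCGt had a signal 2.01 and 1.60 log2 units over the array median, and the core-bearing one 4.60 and 4.06. In the core-bearing probe the bases tt before the member complete TTAC, and it also holds TGAC near its start. For CREB1 the brightest core-free probe lay 1.12 and 1.16 log2 units above. The core-free probe with taCGCGta lay 2.96 and 2.72 log2 units above the median for methylated CEBPB(V285A) and 0.98 and 0.97 for methylated CREB1(A297V). The probe in which T precedes taCGCGta, which completes TTAC, and which holds TTAC near both of its ends as well, lay 4.59 and 4.23 above for CEBPB(V285A) and 4.40 and 5.32 for CREB1(A297V).

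Split by the presence of a core, the signal of aCGtaCGt was larger on core-bearing probes in each group. Its 6 core-free and 13 core-bearing probes had median log2 signals over the array median of 1.15 ± 0.19 and 2.24 ± 0.41 for unmethylated CEBPB(V285A), and 0.83 ± 0.31 and 1.53 ± 0.11 for CREB1. For methylated CEBPB(V285A) they had 0.17 ± 0.12 and 1.94 ± 0.093. The core-free probes of this member thus carried signal for both unmethylated proteins and little for methylated CEBPB(V285A). The 5 core-free and 11 core-bearing probes of taCGCGta had 1.21 ± 0.030 and 2.18 ± 0.12 for methylated CEBPB(V285A), against 1.37 ± 0.081 and 1.10 ± 0.020 on unmethylated DNA. They had 0.34 ± 0.011 and 1.33 ± 0.059 for methylated CREB1(A297V), against 0.35 ± 0.16 and 0.30 ± 0.036 on unmethylated DNA. The higher value in the methylated state was thus found on the core-bearing probes of taCGCGta and not on its 5 core-free ones.

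Scored from core-free probes only, 1686 members kept at least 8 probes, and high members remained. This score was centred and scaled anew over the 8-mers with at least 8 core-free probes. A Z of 3 is therefore not the same measure as over all probes. A mean Z of at least 3 was reached by 28 members for CEBPB(V285A) and 4 for CREB1(A297V) with methylated DNA, and by 64 for CEBPB(V285A), 0 for CREB1(A297V) and 69 for CREB1 on unmethylated DNA. The level had also been reached over all probes by 15 of these for CEBPB(V285A) and 0 for CREB1(A297V) with methylated DNA, and 42 for CEBPB(V285A), 0 for CREB1(A297V) and 50 for CREB1 on unmethylated DNA. The highest were gCGaCGta with 6.02 ± 1.49 for methylated CEBPB(V285A), CGtCGaaa with 3.83 ± 0.481 for methylated CREB1(A297V), CGaCGtag with 8.07 ± 0.939 for unmethylated CEBPB(V285A) and CGtataCG with 6.64 ± 0.766 for CREB1. Neither aCGtaCGt nor taCGCGta has enough core-free probes for a score of this kind.

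The comparison of unmethylated CEBPB(V285A) with CREB1 sets a mutant C/EBP domain against a CREB domain on the same sequences. Few members differed. The limma fit, at an adjusted p below 0.05, called 11 members higher (0.646%) and 44 lower (2.58%), and 1649 were not called, against a background over all 32896 8-mers of 3.67% higher and 2.53% lower. The median difference was -0.0818 over the members and 0.00563 over all 8-mers. Of the 88 ACGT members, 1 was higher for CEBPB(V285A), 3 were lower and 84 were not called. Their numbers also changed with the scaling, with 22 higher and 1 lower on the median-centred log2 score, 2 higher and 24 lower with normexp, and 1 higher and 13 lower after quantile normalization. With single arrays left out, 0 to 12 of them were called. For aCGtaCGt the difference was 0.471 ± 0.803 (adjusted p 0.779), which is within the spread between arrays. The split between higher and lower is not settled: the authors' Z-scores gave 15 higher and 6 lower, and the median-centred log2 score 100 higher and 58 lower. Without CREB1 replicate 2 it was 42 higher and 16 lower, without CREB1 replicate 1 it was 2 higher and 74 lower, and without CEBPB(V285A) replicate 1 or 2 there were 3 or 5 calls.

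Among the members lower for unmethylated CEBPB(V285A), the largest difference was that of CGgCGcCG, a GC-only member with 3 CpG. It had Z of -0.561 and -1.63 for CEBPB(V285A) and 0.746 and 0.690 for CREB1, a difference of -1.81 ± 0.286 (adjusted p 0.00120). The arrays did not overlap, but the unmethylated CREB1(A297V) arrays, which share an identifier with those of CREB1, had 0.528 and 0.794, so protein and identifier cannot be told apart here. CGgctaCG had 0.580 and 0.619 for CEBPB(V285A) and 1.95 and 2.30 for CREB1, a difference of -1.52 ± 0.260 (adjusted p 0.00232). These 2 kept their calls with any single array left out, whereas aCGagaCG (-1.65), aagCGCGt (-1.63) and CGCGctta (-1.54) lost them without either CEBPB(V285A) array (-2.25 to -1.05, -1.75 to -1.51 and -1.73 to -1.34 over the arrays left out). The 5 largest positive differences, 1.10 to 1.72 for aCGCGtat, CGCGagca, aCGCGgtg, CGaaCGga and acCGcCGg, were also lost without either CEBPB(V285A) array (0.666 to 2.37), and none of the 10 was called in every other setting.

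The comparison of CREB1(A297V) with CREB1 on unmethylated DNA is between groups that share an array identifier. Nearly all ACGT members, and many others, scored lower for the mutant. The fit called 13 members higher (0.763%) and 630 lower (37.0%), and 1061 were not called, against a background over all 32896 8-mers of 8.13% higher and 10.8% lower. The calls of members in either direction, 643 in all, numbered 302 without unmethylated CREB1 replicate 2. The median difference was -0.577 over the members and 0.0221 over all 8-mers. Of the ACGT members 87 of 88 fell, with a median difference of -2.50, and in 87 both CREB1(A297V) arrays lay below both CREB1 arrays, as was the case for 25.5% of all 8-mers. On core-free probes 67 of 87 scored ACGT members fell. Likewise 378 of the 435 core-free 8-mers with ACGT and 1 CpG fell too, while of the 17805 without core and CpG 551 fell and 1631 rose.

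The largest falls were those of the highest CREB1 members. aCGtaCGt had 0.514 and 0.745 for CREB1(A297V), whereas CREB1 had 7.05 and 9.60, a difference of -7.70 ± 0.803 (adjusted p 1.68e-05). CGtaCGtc had 0.348 and 1.00 for CREB1(A297V), whereas CREB1 had 6.09 and 6.97, a difference of -5.86 ± 0.564 (adjusted p 1.31e-05). The arrays of the 2 proteins did not overlap for either member. CGtaCGta (-5.50), taCGtCGa (-5.25) and CGaCGtag (-4.85) also fell, and all 5 calls held in every other setting that gave a score and with any array left out. The 5 largest rises were small, 0.902 to 0.943 for aCGgacCG, tCGatCGa, aggCGCGa, acCGgtCG and gggCGCGa. They lost their calls without CREB1(A297V) replicate 2 and with the authors' scores, with differences of 0.537 to 1.35 when single arrays were left out. Beside these values stands the narrow upper range of the members on the unmethylated CREB1(A297V) arrays. The CRE octamer also scored lower there, with 14.5 ± 2.58 for CREB1(A297V) beside 30.8 ± 2.42 for CREB1. The PAR octamer did not, as its lowest score of all groups was that of CREB1. Over all 8-mers the highest mean Z was 21.6 for unmethylated CREB1(A297V) and 30.8 for CREB1. The part of the range in the members' lower scores was not tested.

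The share of members that fell for CREB1(A297V) was smaller at high G and C. Among members with 4, 5, 6, 7 and 8 G or C, 58 of 114, 220 of 441, 271 of 662, 74 of 400 and 7 of 87 fell. Among core-free 8-mers without CpG, 204 of 4947 with 4 and 2 of 120 with 7 G or C fell. The share lower was thus 50.9% in members and 4.12% without CpG at 4 G or C, and 18.5% and 1.67% at 7.

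Between the 2 mutants on unmethylated DNA, CEBPB(V285A) scored the members higher. The fit called 578 members higher (33.9%) and 36 lower (2.11%), and 1090 were not called, against a background over all 32896 8-mers of 14.1% higher and 11.5% lower. The calls of members in either direction, 614 in all, numbered 321 without unmethylated CEBPB(V285A) replicate 1. The median difference, CEBPB(V285A) minus CREB1(A297V), was 0.479 over the members and -0.00625 over all 8-mers. Of the ACGT members 80 of 88 were higher for CEBPB(V285A) and none was lower (median difference 2.36), and on core-free probes 58 of 87 were higher. This comparison shares its CREB1(A297V) arrays with the preceding one, so the 2 are not independent. For aCGtaCGt the difference was 8.17 ± 0.803 (adjusted p 3.04e-06), for CGtaCGtc 5.91 ± 0.564 and for CGaCGtag 5.59 ± 0.612. These 3, with CGtaCGta (5.55) and aCGtCGtc (5.63), held in every other setting that gave a score and with any array left out. In the other direction CGgCGcCG was lower for CEBPB(V285A), with a difference of -1.76 (adjusted p 0.000230), a call that was lost with the authors' scores and without the local median.

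The comparison of methylated with unmethylated DNA for CEBPB(V285A) addresses CpG methylation, for which each member offers M.SssI at least 2 sites. Where members changed, they mostly scored lower on methylated DNA. The fit called 11 members higher (0.646%) and 188 lower (11.0%), and 1505 were not called, against a background over all 32896 8-mers of 3.84% higher and 3.73% lower. The calls of members in either direction, 199 in all, numbered 9 without methylated CEBPB(V285A) replicate 1, 34 without methylated CEBPB(V285A) replicate 2, 6 without unmethylated CEBPB(V285A) replicate 1, 63 without unmethylated CEBPB(V285A) replicate 2, 323 without unmethylated CREB1(A297V) replicate 1 and 317 without unmethylated CREB1(A297V) replicate 2. The median difference was -0.351 over the members and 0.00616 over all 8-mers. Of the ACGT members 36 of 88 fell, 0 rose and 52 were not called, with a median difference of -1.03. In 66 of them both methylated arrays lay below both unmethylated ones and in 8 above, against 31.1% and 32.1% of all 8-mers. The 36 calls changed with single arrays: they numbered 3 without methylated replicate 1, 12 without methylated replicate 2, 1 without unmethylated replicate 1 and 19 without unmethylated replicate 2. On core-free probes 23 of 87 fell.

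Calls of this kind were counted in related sets as well. Of the 435 core-free 8-mers with ACGT and 1 CpG, 192 fell (44.1%), beside 40.9% of the ACGT members. Among members with 7 G or C 29 of 400 fell (7.25%), against 4 of 120 core-free 8-mers without CpG (3.33%). At 4 G or C the shares were 13.2% of 114 members and 1.31% of 4947 8-mers without CpG. The 81 CpG-dense 8-mers with a core had 8 higher and 17 lower. None of these shares was tested against another.

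By member, aCGtaCGt had 4.48 and 3.81 on methylated and 9.93 and 7.67 on unmethylated CEBPB(V285A) arrays, a difference of -4.66 ± 0.803 (adjusted p 0.00316). The states did not overlap, but the call was lost without unmethylated replicate 1 or methylated replicate 2, with differences of -5.79 to -3.52 over the arrays left out. CGtaCGtc had 3.54 and 2.31 on methylated and 6.89 and 6.28 on unmethylated arrays, a difference of -3.66 ± 0.564 (adjusted p 0.00184). It was the member among the 5 largest falls that held with any array left out and in every other setting. aCGacaCG (-3.44), CGtCGaCG (-3.30) and CGtaCGta (-3.23) also fell, and lost their calls without unmethylated replicate 1 and without methylated replicate 1, with values of -4.15 to -2.73, -3.54 to -3.07 and -4.13 to -2.33. On core-free probes, which are scored on their own scale, the falls in Z of aCGacaCG, CGtaCGta and CGtaCGtc were smaller. There aCGacaCG had 0.789 ± 0.0628 on methylated and 1.52 ± 0.400 on unmethylated DNA and was not called. CGtaCGta had 1.76 ± 0.388 and 3.46 ± 0.807, and CGtaCGtc had 1.54 ± 0.564 and 3.40 ± 0.924. The core-free fall was not smaller for aCGtCGtc, with 3.61 ± 0.166 and 6.58 ± 0.230, beside a difference of -2.81 over all probes. CGtataCG, which has no ACGT, had 2.44 and 2.29 on methylated and 5.92 and 5.25 on unmethylated arrays (difference -3.22 ± 0.503, adjusted p 0.00188; not called without unmethylated replicate 1, -3.55 to -2.89 over the arrays left out), and on core-free probes 3.28 ± 0.971 and 6.40 ± 0.999.

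Not every high CEBPB(V285A) member was lower on methylated DNA. gCGaCGta had 6.11 and 5.27 on methylated and 4.65 and 5.16 on unmethylated arrays, a difference of 0.785 ± 0.584 (adjusted p 0.426). taCGCGta was higher on both methylated arrays by 2.25 ± 0.693, which did not pass the threshold (adjusted p 0.0529). The 5 largest rises were cCGgcCGg (1.52), gtCGCGta (1.44), CGCGttaa (1.40), aCGcccCG (1.18) and aCGggtCG (1.17). On core-free probes the difference of aCGcccCG turned to -0.928. Of these, cCGgcCGg had 1.13 and 0.673 on methylated and -0.314 and -0.915 on unmethylated arrays and was called in every other setting. Each lost its call without at least 2 of the CEBPB(V285A) arrays in turn, with differences between 0.978 and 1.82.

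For CREB1(A297V), members differed in both directions between methylated and unmethylated DNA, with rises below the background share and falls somewhat above it. The fit called 113 members higher (6.63%) and 233 lower (13.7%), and 1358 were not called, against a background over all 32896 8-mers of 10.4% higher and 11.1% lower. The split is not settled: it was 184 higher and 170 lower without unmethylated CREB1(A297V) replicate 2, and 60 higher and 292 lower without unmethylated replicate 1. The calls of members in either direction, 346 in all, numbered 120 without methylated CREB1(A297V) replicate 1 and 168 without methylated CREB1(A297V) replicate 2. The median difference was -0.0513 over the members and 0.0209 over all 8-mers. Of the ACGT members 10 rose, 1 fell and 77 were not called, and the number of calls was 1 to 23 when single arrays were left out. On core-free probes 10 of 87 scored ACGT members rose and 6 fell. Falls were frequent at high G and C, with or without CpG: 97 of 400 members with 7 G or C fell (24.2%), and 43 of 120 core-free 8-mers of that composition without CpG (35.8%). At 8 G or C 40 of 87 members fell, and 6 of 114, 35 of 441 and 55 of 662 with 4, 5 and 6 G or C. Array identifier, probe layout and methylation differ together in this comparison and cannot be told apart.

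The named falls for CREB1(A297V) included members made mostly of C and G. ctCGCGag had -0.576 and -1.08 on methylated and 1.64 and 1.66 on unmethylated arrays, a difference of -2.48 ± 0.265 (adjusted p 1.14e-05). aagCGCGt had 0.528 and 0.279 on methylated and 2.26 and 2.74 on unmethylated arrays (difference -2.10 ± 0.355, adjusted p 0.000652). The states did not overlap for either member. With cCGgtCGc (-2.20), aCGCGggg (-2.03) and CGgCGcCG (-1.97), these falls were called with any array left out. Among other settings, CGgCGcCG was not called with the authors' scores or without the local median, and aCGCGggg not with signal over background. The largest rise was that of taCGCGta, by 2.49 ± 0.693 (adjusted p 0.0157), with 4.68 and 5.01 on methylated and 1.92 and 2.79 on unmethylated arrays. It was not called without unmethylated replicate 1 or either methylated array, with differences of 2.05 to 2.93, nor with signal over background or normexp. CGtgtCGa (1.83) and aCGaCGga (1.81) rose and held with any array left out. aCGtCGta (1.71) and aCGaCGtg (1.68) lost their calls without unmethylated replicate 1 or methylated replicate 1 (1.02 to 2.40 and 1.37 to 1.98 over the arrays left out), and none of these 4 rises was called on core-free probes or with the authors' scores.

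On methylated DNA, CEBPB(V285A) scored more members higher than CREB1(A297V) did, on arrays with a common identifier but different layouts. The fit called 191 members higher (11.2%) and 13 lower (0.763%), and 1500 were not called, against a background over all 32896 8-mers of 6.75% higher and 5.49% lower. The calls of members in either direction, 204 in all, numbered 52 without methylated CEBPB(V285A) replicate 1, 47 without methylated CEBPB(V285A) replicate 2, 65 without methylated CREB1(A297V) replicate 1, 29 without methylated CREB1(A297V) replicate 2 and 309 without unmethylated CREB1(A297V) replicate 2. The median difference, CEBPB(V285A) minus CREB1(A297V), was 0.314 over the members and 0.0562 over all 8-mers. Of the ACGT members 31 were higher, 0 were lower and 57 were not called. The 31 calls became 9 and 10 without CEBPB(V285A) replicates 1 and 2, and 13 and 4 without CREB1(A297V) replicates 1 and 2. On core-free probes 20 of 87 were higher.

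The largest difference was that of gCGaCGta, with 6.11 and 5.27 for CEBPB(V285A) and 2.19 and 1.51 for CREB1(A297V) on methylated arrays. It came to 3.84 ± 0.584 (adjusted p 0.000244), held with any array left out and in every other setting, and stood at 6.02 ± 1.49 against 1.29 ± 0.388 on core-free probes. aCGtCGtg (2.71), aCGCGtag (2.69) and ataCGtCG (2.63) were higher for CEBPB(V285A) as well, aCGCGtag not on core-free probes and ataCGtCG not without CREB1(A297V) replicate 2 (2.33 to 2.94 over the arrays left out). taCGCGta was higher by 3.13 (adjusted p 0.00576), and lost the call without CEBPB(V285A) replicate 1 or either CREB1(A297V) array (2.96 to 3.29). In the other direction, CGaaatCG had 0.884 and 0.607 for CEBPB(V285A) and 2.67 and 3.05 for CREB1(A297V), a difference of -2.11 ± 0.316 (adjusted p 0.000209) that held with any array left out and in every other setting. CGtCGaaa differed by -1.85 (adjusted p 0.00269) and was not called without CEBPB(V285A) replicate 1 or CREB1(A297V) replicate 2 (-2.11 to -1.58). Both of these members, like aCGaaaCG, hold CGAAA and no ACGT, but members with CGAAA were not counted as a set. On core-free probes aCGaaaCG had 2.72 ± 0.115 for methylated CEBPB(V285A) and 3.00 ± 0.472 for methylated CREB1(A297V). For aCGCGaaa, which also holds CGAAA, these were 1.54 ± 0.610 and 1.97 ± 0.299. The members named next do not hold CGAAA. acCGcCGt (-1.45), aattCGCG (-1.33) and CGtgtCGa (-1.32) lost their calls without CREB1(A297V) replicate 2 (-1.73 to -1.18, -1.55 to -1.11 and -1.65 to -0.990 over the arrays left out). None was called on core-free probes, where the differences of acCGcCGt (0.989) and CGtgtCGa (0.257) turned sign; that of CGtgtCGa also turned with the authors' scores (0.0894).

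The difference between the methylation responses of the 2 mutants was tested as an interaction, CEBPB(V285A) minus CREB1(A297V). It was called for 8 members above 0 (0.469%) and 58 below 0 (3.40%), against 1.42% and 1.64% of all 8-mers. The direction is not settled: with normexp background correction 34 lay above and 13 below 0, and without unmethylated CREB1(A297V) replicate 1 the numbers were 30 and 49. Of the ACGT members 20 of 88 lay below 0 and 0 above. These calls changed with single arrays: with all members counted there were 1 and 5 without CEBPB(V285A) methylated replicates 1 and 2, 0 and 1 without CREB1(A297V) methylated replicates 1 and 2, and 0 and 25 without CEBPB(V285A) unmethylated replicates 1 and 2. The count was higher, at 198, without unmethylated CREB1(A297V) replicate 2, and at 142 and 147 without CREB1 replicates 1 and 2.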

How the data were processed

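The authors deposited a spot table per array with the median of each probe's signal intensity and that of its background intensity; per the file headers these are linear, and no background subtraction is recorded. Their second deposited kind of value is a Z-score for each 8-mer, whose steps are not given in the sources used here, like the scanner software; it served as an alternative. Here the log2 median signal of each probe was lowered by the median of a window of 15 by 15 spots. An 8-mer's value is the median over the probes holding it on either strand (at least 8), centred and scaled by median and median absolute deviation within the array. All 10 arrays entered a single limma fit with a coefficient per group and a variance trend (limma 3.58.1, R 4.3.3, Python 3.11.15), with 5 residual degrees of freedom, two-sided moderated tests and Benjamini-Hochberg adjustment over all 32896 8-mers, called below 0.05. The code was tested on simulated data. The number of arrays limits the precision. Groups follow the labels.

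Named members were the 5 highest per group, the 5 called members with the highest and the 5 with the lowest difference per comparison (3 each for the interaction), the member with 4 CpG, and the highest and lowest per group among those with at least 3 CpG. The members and the sequence groups were chosen with earlier results of these data known. Alternatives were the authors' scores, signal over background, normexp correction with an offset of 50, an unscaled log2 score, no local median, quantile normalization, core-free probes, removal of dim probes, no variance trend, a replicate block, arrays sharing an identifier, and leaving out each array. The split of probes by core and the count of non-overlapping ACGT members were added after seeing the data. No sample was dropped or imputed.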

Additional observations from a re-analysis of the deposited data

Results flagged for a closer look

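The methylation response, methylated minus unmethylated, differed between the 2 mutants for 66 members by the limma interaction, a test of the difference itself. The 3 members with the lowest differences, CEBPB(V285A) minus CREB1(A297V), all hold ACGT. They were aCGtaCGt, at -6.52 ± 1.14 (adjusted p 0.0106; responses -4.66 for CEBPB(V285A) and 1.87 for CREB1(A297V)), CGtaCGtc, at -5.06 ± 0.798 (adjusted p 0.00652; responses -3.66 for CEBPB(V285A) and 1.40 for CREB1(A297V)) and aCGtCGtc, at -4.06 ± 0.852 (adjusted p 0.0209; responses -2.81 for CEBPB(V285A) and 1.25 for CREB1(A297V)). In each the response was below 0 for CEBPB(V285A) and above 0 for CREB1(A297V). The CREB1(A297V) responses were not called, however, with limma adjusted p of 0.104, 0.0819 and 0.144 in this order. The 3 with the highest differences consist of C, G and at most 1 A. They were CGgacCGc, at 1.99 ± 0.445 (adjusted p 0.0236; responses 0.730 for CEBPB(V285A) and -1.26 for CREB1(A297V)), CGgcccCG, at 1.58 ± 0.374 (adjusted p 0.0302; responses 0.0508 for CEBPB(V285A) and -1.53 for CREB1(A297V)) and CGgCGcCG, at 1.58 ± 0.404 (adjusted p 0.0403; responses -0.391 for CEBPB(V285A) and -1.97 for CREB1(A297V)). In these the CREB1(A297V) response was below 0. None of the 6 calls held with every array left out in turn, and none held in all other settings. The methylated CREB1(A297V) arrays have their own probe layout, whose part was not tested.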

How the results depend on the processing

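Of 72 counts of called members under other settings, 43 stayed within 1.5 times the count reported. For CEBPB(V285A) against CREB1 on unmethylated DNA (55 calls) the others were 21 with the authors' scores, 12 with signal over background, 97 with normexp (7 higher, 90 lower), 158 with the unscaled log2 score, 10 without the local median (4 higher, 6 lower) and 34 on core-free probes (12 higher, 22 lower). For CREB1(A297V) against CREB1 (643) they were 421 without the local median, 338 on core-free probes and 363 within the shared identifier, all of the last lower. For CEBPB(V285A) against CREB1(A297V) on unmethylated DNA (614) core-free probes gave 386. For CEBPB(V285A) on methylated against unmethylated DNA (199) the authors' scores gave 85, signal over background 62, normexp 106 (19 higher, 87 lower), the unscaled score 646 and no local median 54. For CREB1(A297V) on methylated against unmethylated DNA (346) the same settings except normexp gave 113, 136, 564 and 122, and normexp 59 higher and 306 lower. For CEBPB(V285A) against CREB1(A297V) on methylated DNA (204) they gave 98, 64, 525 (429 higher, 96 lower) and 79, core-free probes 92 and the shared identifier 528. For the interaction (66) signal over background gave 23, the unscaled score 159, no local median 27 and core-free probes 21; with normexp the split was 34 above and 13 below 0, with the authors' scores 1 and 49. With single arrays left out the counts were 3 to 116, 302 to 746, 321 to 694, 6 to 323, 120 to 422, 29 to 309 and 0 to 198 in this order of comparisons.

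Of 666 differences of named members under other settings, 490 kept direction and call, 164 lost the call and 12 turned sign. For unmethylated CEBPB(V285A) against CREB1 these were aCGCGtat (-0.511 with normexp) and, on core-free probes, CGCGagca (-0.0424), aCGCGgtg (-0.236) and aagCGCGt (0.0193). For CREB1(A297V) against CREB1 they were aCGgacCG (-0.615 with log2 of signal over background) and, with the authors' scores, acCGgtCG (-0.300) and gggCGCGa (-0.0554). The others were aCGcccCG for CEBPB(V285A) methylation (-0.928 on core-free probes), acCGcCGt (0.989 on core-free probes) and CGtgtCGa (0.0894 with the authors' scores, 0.257 on core-free probes) between the mutants on methylated DNA, and CGgCGcCG in the interaction (-0.0329 with the authors' scores). The cause was not tested.

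The deviations of the replicates from their group means correlated at -0.184 to 0.250 over 10 pairs of groups, and 2 pairs exceeded 0.1. The highest value was that of unmethylated CREB1 and CREB1(A297V), which share an array identifier. With 2 arrays per group this cannot settle whether the replicate numbers pair the arrays. With the replicate number as a block the counts were 65, 678, 658, 232, 385, 239 and 94, each within 1.5 times the count reported. Median signal over background was lowest, at 1.79, on the second unmethylated CREB1(A297V) array, and the share of probes not above background was highest, at 3.89%, on the second methylated CEBPB(V285A) array.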

Other observations

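Whole probes without a core were also summarised directly, outside the 8-mer score. Core-free probes without ACGT that hold 0, 1, 2, 3, 4 and at least 5 CpG had median log2 signals over the array median of 0.12 ± 0.014, 0.044 ± 0.012, -0.031 ± 0.0025, -0.11 ± 0.0025, -0.13 ± 0.0043 and -0.20 ± 0.017 for methylated CEBPB(V285A). For the same protein on unmethylated DNA they had 0.0022 ± 0.0045, -0.011 ± 0.0029, -0.022 ± 0.0046, -0.047 ± 0.0019, -0.059 ± 0.0058 and -0.080 ± 0.015. The probes number 1679, 4050, 4645, 3421, 1647 and 746, and their median G+C content runs from 42.9% to 62.9%, so CpG number and composition cannot be told apart here. The 149 core-free probes with at least 5 CpG and ACGT had 0.31 ± 0.086 for CEBPB(V285A) and 0.064 ± 0.0019 for CREB1(A297V) with methylated DNA, and 0.35 ± 0.090 for CEBPB(V285A), -0.031 ± 0.039 for CREB1(A297V) and 0.34 ± 0.063 for CREB1 on unmethylated DNA.

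RefSeq windows of 300 bases around gene starts (build GRCm38.p6, 32544 distinct windows) were searched for each exact 8-mer on both strands. The median share of windows that hold a member was 0.396%, 0.977% for members with at least 3 CpG and 0.151% for ACGT members, against 0.691% for all 8-mers of that length. aCGtaCGt was found in 15 windows, taCGCGta in 9, CGCGCGCG in 803 (2.47%) and, beside them, the CRE octamer tgaCGtca in 586 (1.80%). A match describes the letters of these windows alone.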
